A study of Mus musculus with 6 samples.

Results

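A set of 10 genes that mark hepatocytes around the central vein and depend on WNT signalling were followed in mouse livers with both copies or with 1 copy of Ptprd, the gene of receptor-type protein tyrosine phosphatase delta. They are Glul, Cyp2e1, Cyp1a2, Oat, Axin2, Lgr5, Rgn, Slc1a2, Lect2 and Tbx3, taken by gene name from a count table of 25904 genes, a rule that uses no measured value. Each name matched 1 row of the table. Messenger RNA was sequenced from livers of C57BL/6J mice, 3 of them Ptprd wild type (WT) and 3 Ptprd heterozygous (Het), 1 library per liver sample. No other treatment or allele is named for either genotype. The kind of Ptprd allele, the sex, age and feeding state of the mice and the hour of sampling were not stated in what was used here. Nor do the labels say in words that every library came from its own mouse. If any shared one, the p-values would measure technical spread.

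Hepatocytes are not alike along the liver lobule. Endothelial cells of the central vein secrete WNT ligands and R-spondin, and the hepatocytes nearest to them hold active beta-catenin, which together with TCF/LEF factors turns on a pericentral programme. That programme includes glutamine synthesis, the main drug-metabolising cytochromes and feedback inhibitors of the pathway itself, while urea synthesis and gluconeogenesis prevail at the portal end. Because these livers were measured in bulk, a smaller pericentral zone and less RNA per pericentral cell cannot be told apart.

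The 6 libraries held 37924266 to 72954187 counts. Levels are given as CPM, the usual unit of counts relative to library size, with library sizes scaled by TMM. The fit by edgeR's quasi-likelihood test covered 14606 genes with enough counts, and all 10 members were among them, with 191 to 707747 counts per library. Ptprd itself stood at 128, 127 and 132 CPM in WT 1, WT 2 and WT 3 and 54.1, 78.1 and 63.4 CPM in Het 1, Het 2 and Het 3, so each library matched its label. It was 1.98-fold lower in Het, with an adjusted p of 0.298 by edgeR and 2.23e-06 by DESeq2. Liver identity was plain from general hepatocyte markers, with Ttr, the gene of the plasma protein transthyretin, at 4889 to 7059 CPM. Het 2 and Het 3 stood apart from the other 4 libraries in clock genes: Nr1d1, which encodes the clock repressor REV-ERB alpha, had 55.5 and 46.9 CPM there against 9.49 to 21.4 CPM elsewhere. Clock, the gene of a core clock activator, had 20.2 and 20.3 CPM in them against 31.3 to 42.5 CPM elsewhere. The fold changes of the members without both libraries follow their overall test.

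The promoters of 5 members are shown first, those of Glul and Axin2 as the classic readouts of hepatic beta-catenin, and those of Cyp2e1, Cyp1a2 and Lect2 as the 3 members with the largest positive differences. They were read from RefSeq's promoter table (mm10, GRCm38.p6), in which 7 of the 10 members were matched: Glul, Cyp2e1, Cyp1a2, Oat, Axin2, Slc1a2 and Lect2. Bases that either RefSeq or GENCODE M21 places after the gene start were left off. Each runs 5′ to 3′ on the strand of its gene. Capitals mark the letters CTTTGA or their reverse complement TCAAAG, a form of the core of the TCF/LEF binding site.
Glul chr1:153899679-153899928 (+ strand): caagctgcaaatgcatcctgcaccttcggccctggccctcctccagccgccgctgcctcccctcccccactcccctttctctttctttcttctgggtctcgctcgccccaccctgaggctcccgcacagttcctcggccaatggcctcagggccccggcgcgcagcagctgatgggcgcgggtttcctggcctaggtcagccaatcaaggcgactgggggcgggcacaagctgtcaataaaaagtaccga
Axin2 chr11:108920099-108920348 (+ strand): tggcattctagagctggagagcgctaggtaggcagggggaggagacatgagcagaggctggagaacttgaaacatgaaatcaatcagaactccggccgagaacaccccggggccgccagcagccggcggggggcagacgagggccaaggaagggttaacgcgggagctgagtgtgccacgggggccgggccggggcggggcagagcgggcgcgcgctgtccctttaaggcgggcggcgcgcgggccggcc
Cyp2e1 chr7:140763569-140763738 (+ strand): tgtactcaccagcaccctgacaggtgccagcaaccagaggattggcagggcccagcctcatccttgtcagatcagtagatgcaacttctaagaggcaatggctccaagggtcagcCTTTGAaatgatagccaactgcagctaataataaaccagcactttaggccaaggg
Cyp1a2 chr9:57683704-57683905 (- strand): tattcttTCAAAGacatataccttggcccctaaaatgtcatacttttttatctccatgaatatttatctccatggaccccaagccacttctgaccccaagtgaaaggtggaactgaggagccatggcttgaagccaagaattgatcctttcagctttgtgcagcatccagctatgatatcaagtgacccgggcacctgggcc
Lect2 chr13:56548539-56548788 (- strand): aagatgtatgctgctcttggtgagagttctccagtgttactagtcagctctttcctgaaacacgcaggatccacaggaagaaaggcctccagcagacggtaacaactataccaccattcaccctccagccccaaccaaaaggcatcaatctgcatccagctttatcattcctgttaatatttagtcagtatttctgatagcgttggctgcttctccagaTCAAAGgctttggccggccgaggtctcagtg
Of the 7 windows of 250 bases before the RefSeq start, 4 held this form of the core on either strand, where 13.8% of all 32851 mouse promoter windows did. Counted from the RefSeq start, it began 135 bases before the start in Cyp2e1, 243 in Cyp1a2 and 31 in Lect2. The printed stretches of Cyp2e1 (170 bases) and Cyp1a2 (202 bases) end before that start, because GENCODE M21 places the gene start further upstream. In Slc1a2 the form began at 206 and at 77 bases before a start that lies inside the gene. The windows of Glul, Axin2 and Oat did not hold these letters. This form overlaps the CAAAG part of HNF4A sites, so a match does not name a factor. Other forms of the core and enhancers further away were not searched.

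None of the 10 members passed the test between the genotypes. Of all 14606 genes 0 (0%) passed edgeR's adjusted p of 0.05, and 0 of the 10 members did, with adjusted p values from 0.685 to 0.987. Limma-voom also called 0 genes (0%) and 0 members. DESeq2 called 64 genes (0.438%) and none of the members, whose lowest DESeq2 adjusted p was 0.571. At an unadjusted p under 0.05 in edgeR stood 1 member, Axin2, against 7.15% of all genes. That count was 0 without WT 2, without Het 1 or without Het 2 and Het 3 together, and 2 without WT 1, without Het 2, with no filter on low counts or in DESeq2. It was Cyp2e1 in place of Axin2 without WT 3, and Lect2 without Het 3. Het and WT libraries overlapped in each of the 10, while they were separate in 13.9% of all genes. The mean was higher in Het for 7 members and lower for 3. Their median log2 fold change was 0.10, and that of all tested genes -0.00. Without Het 2 and Het 3 together the count of called members was 0 as well, and the log2 fold changes were 0.34 for Cyp2e1, 0.25 for Cyp1a2, 0.26 for Lect2, -0.51 for Axin2, -0.34 for Tbx3 and -0.26 for Rgn. For Glul, Oat, Lgr5 and Slc1a2 they were then -0.11, -0.02, -0.28 and -0.17, the opposite sign to that with all 6 libraries. Of the 10 members 6 were separate in this comparison with 1 Het library, as were 63.1% of all genes tested in it. For every member the 95% interval of the fold change lay within 2-fold in either direction, so a larger difference lies outside all 10 intervals.

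**Figure D1:**
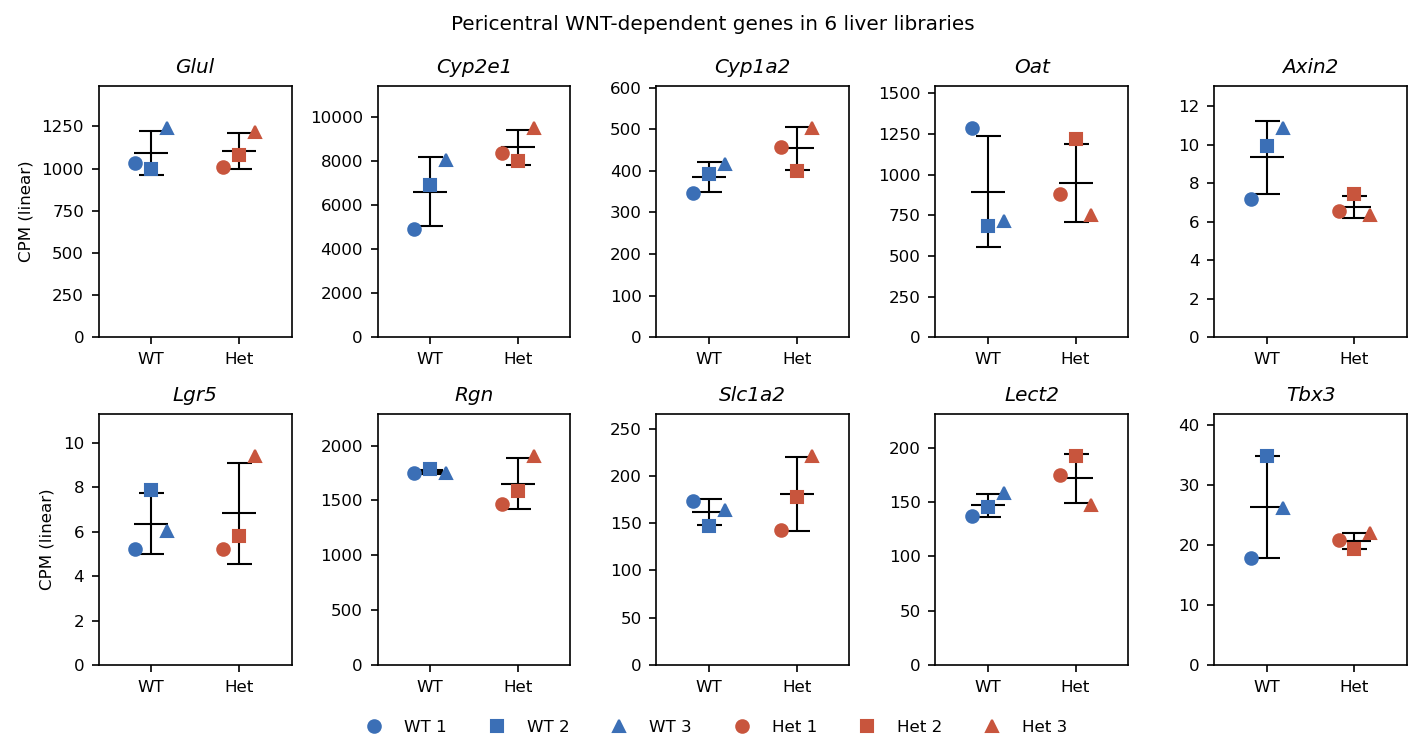
CPM of each member (linear axis from 0) in the 3 WT (blue) and 3 Het (red) libraries. Horizontal lines give the mean and the SD. In every panel the ranges of the red and blue points overlap, for Cyp2e1 through WT 3 and Het 2, for Axin2 through WT 1 and Het 2.

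Glul encodes glutamine synthetase, which takes up the ammonia that escapes the urea cycle in the last rows of hepatocytes before the central vein. The gene (ENSMUSG00000026473) spans bases 153899944 to 153909723 of chromosome 1 (mm10). Its WT libraries stood at 1035, 999.9 and 1242 CPM and its Het libraries at 1012, 1080.1 and 1219 CPM. The genotypes covered nearly the same range, and the highest library exceeded the lowest 1.24-fold, the smallest such span among the members. Its log2 fold change was 0.01 (SE 0.13, 95% interval -0.29 to 0.32; edgeR adjusted p 0.987). Slc1a2, the gene of the glutamate transporter GLT-1, which supplies the substrate of glutamine synthetase (ENSMUSG00000005089, chromosome 2, 102658659 to 102790784), had 174, 147 and 164 CPM in WT. The Het libraries had 143, 178 and 222 CPM, that is, both the lowest and the highest value of the gene. Its log2 fold change of 0.16 (SE 0.16) was -0.01 without Het 3.

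Oat encodes ornithine aminotransferase, a mitochondrial enzyme that breaks down ornithine and passes its nitrogen towards glutamate (ENSMUSG00000030934, chromosome 7, 132557478 to 132576398). Levels were 1287, 682 and 715 CPM for WT, against 879, 1218 and 751 CPM for Het. WT 1 and Het 2 were high and the other 4 libraries low, so the variation lay within the genotypes. The log2 fold change was 0.08 (SE 0.28), and 0.44 without WT 1, -0.13 without Het 2.

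The 2 cytochromes P450 had the largest positive log2 fold changes of the 10 genes. Cyp2e1, which oxidises ethanol, acetaminophen and other small molecules, is among the most abundant pericentral transcripts (ENSMUSG00000025479, chromosome 7, 140763739 to 140774987). Its WT libraries held 4899, 6889 and 8016 CPM, against 8340.3, 7994 and 9497 CPM for Het. All but WT 3 of the WT libraries lay below all Het libraries, and WT 3 passed Het 2 by a small margin. With no filter on low counts, the scaling changed slightly and all Het libraries were above WT. The log2 fold change was then 0.39, with an edgeR unadjusted p of 0.0224 and an adjusted p of 0.698. With RLE or upper-quartile scaling and the usual filter, the edgeR unadjusted p was 0.0897 and 0.0884. In the main fit the fold change was 1.30 (95% interval 0.951 to 1.79; edgeR unadjusted p 0.0888, adjusted p 0.720). Without WT 1, the lowest library, the log2 fold change went from 0.38 to 0.21. Cyp2e1 alone took 0.492% of all counts in WT 1 and 0.970% in Het 3.

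Cyp1a2, the cytochrome that clears caffeine and is controlled by the aryl hydrocarbon receptor as well as by beta-catenin (ENSMUSG00000032310, chromosome 9, 57676937 to 57683703), had 346, 393 and 417 CPM in WT. In Het it had 459, 400.1 and 504 CPM, and of the Het libraries Het 2 alone lay within the WT range. The fold change was 1.18 (95% interval 0.963 to 1.44; edgeR adjusted p 0.723). The log2 fold change of 0.24 was 0.16 without Het 3, and 0.32 without Het 2, where the genotypes were separate and the edgeR unadjusted p was 0.0472. The receptor's gene Ahr averaged 43.4 ± 4.83 CPM in WT against 38.7 ± 6.19 CPM in Het (SD, n = 3). Its target Cyp1a1, next to Cyp1a2 on the chromosome, was near the limit of detection at 0.254 to 1.46 CPM. The log2 fold change of Cyp1a1 was 0.67 (SE 0.50), the same sign as that of Cyp1a2. Nqo1 and Tiparp, 2 further targets, had log2 fold changes of -0.57 and -0.45 with Het libraries below WT libraries, the opposite sign to Cyp1a2. Of the 7 tested genes of the receptor and its targets 6 had a lower mean in Het, 2 of them, Nqo1 and Tiparp, at an unadjusted p under 0.05 (3.77% of all genes), and by edgeR 0 passed after adjustment. Separate and lower were 3 of the 7, Nqo1 and Tiparp among them, against 6.72% of all genes.

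Lect2 encodes a hepatocyte-secreted chemotactic protein that is transcribed under beta-catenin control in mice (ENSMUSG00000021539, chromosome 13, 56542464 to 56548502). Its levels were 137, 145 and 158 CPM for WT, and for Het 175, 193 and 148 CPM. Het 1 and Het 2 lay above all WT libraries, and Het 3 lay among them. The fold change was 1.17 (95% interval 0.962 to 1.42; edgeR adjusted p 0.724). The log2 fold change of 0.23 was 0.14 without Het 2, and 0.33 without Het 3, where the genotypes were separate and the edgeR unadjusted p was 0.0241. Rgn, the X-linked gene of regucalcin, a calcium-binding lactonase of vitamin C synthesis (ENSMUSG00000023070, chromosome X, 20549787 to 20562089), was steady in WT at 1751, 1783 and 1753 CPM. The Het libraries had 1464, 1587 and 1908 CPM, on both sides of the WT values. Its coefficient of variation was 1.01% in WT and 13.9% in Het, and its log2 fold change -0.09 (SE 0.13). Without Het 3 the Rgn difference was -0.21 and the genotypes were separate, and without Het 1 it was -0.02.

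Axin2 is the general feedback gene of the pathway: beta-catenin turns it on, and its product rebuilds the complex that destroys beta-catenin (ENSMUSG00000000142, chromosome 11, 108920349 to 108950783). The WT libraries showed 7.18, 9.94 and 10.9 CPM, the Het libraries 6.53, 7.43 and 6.32 CPM. WT 1 lay among the Het libraries, and the other WT libraries lay above all of them. The gene was 1.38-fold lower in Het (log2 fold change -0.46, SE 0.18, 95% interval -0.87 to -0.06), with an edgeR unadjusted p of 0.0294 and an adjusted p of 0.685. In the order of all tested genes by p it took place 615. The exact permutation p was 0.2, where 3 against 3 libraries can reach 0.1. In single omissions of a library the log2 fold change ran from -0.62 without WT 1 to -0.34 without WT 3, and the sign held in each. The edgeR unadjusted p was 0.0923 without WT 2, 0.114 without WT 3, 0.0667 without Het 1 and 0.0838 without Het 3. It was 0.00453 without WT 1 and 0.0316 without Het 2 (edgeR adjusted p 0.892 and 0.490). In both of these the genotypes were separate, Het being lower, as 21.9% and 27.8% of all genes were separate in either direction.

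Tbx3, a T-box repressor gene that beta-catenin activates in liver (ENSMUSG00000018604, chromosome 5, 119670669 to 119684724), stood at 17.8, 34.8 and 26.2 CPM for WT, against 20.7, 19.2 and 22.0 CPM for Het. The WT libraries spread widely around a narrow Het group. Its log2 fold change of -0.35 (SE 0.22) was -0.08 without WT 2, so its size rested on that library, and -0.56 without WT 1. Without WT 1 the genotypes were separate, Het being lower, with an edgeR unadjusted p of 0.00576 and an adjusted p of 0.892. An antisense gene, Tbx3os1, shares 115 exonic bases with Tbx3 and had 2491 counts over the 6 libraries, and whether the counting separated the strands is not stated. Lgr5, the gene of the R-spondin receptor that marks the innermost pericentral cells (ENSMUSG00000020140, chromosome 10, 115450311 to 115587780), had 5.21, 7.87 and 6.02 CPM in WT. It had 5.24, 5.81 and 9.43 CPM in Het, with Het 3 above the rest and the others inside the WT range. The log2 fold change was 0.11 (SE 0.25), and -0.20 without Het 3.

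To compare levels between genes, CPM were divided by the length of each gene's merged GENCODE M21 exons. On this scale of CPM per kilobase in WT (mean ± SD, n = 3), Cyp2e1 led at 3059 ± 732, followed by Rgn at 1097 ± 11.1. Oat at 379 ± 144 and Glul at 329 ± 39.3 came next and overlapped in range over the 6 libraries. So did Cyp1a2 at 192 ± 17.9 and Lect2 at 160 ± 11.5. Far below stood the transporter Slc1a2 at 12.3 ± 1.04, and then the regulators Tbx3 at 3.96 ± 1.29, Axin2 at 1.69 ± 0.348 and Lgr5 at 0.620 ± 0.133. Of the 9 neighbouring pairs in this order 2 overlapped. Merged exons hold the sequence of every annotated transcript, so a gene whose main transcript is short, as may apply to Slc1a2 with 13.1 and Lgr5 with 10.3 kilobases, is placed too low.

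The signal upstream of these genes was measured in the same libraries. Wnt2 and Wnt9b, WNT ligands of the central vein endothelium, had log2 fold changes of 0.10 (SE 0.25) and -0.04 (SE 0.26). Rspo3, the R-spondin of the same cells, had 5.23, 4.42 and 5.86 CPM for WT and for Het 4.25, 5.13 and 5.56 CPM, a log2 fold change of -0.05 (95% interval -0.44 to 0.35). All 3 ligands overlapped between the genotypes. Of 22 listed ligands and secretion genes 10 were tested, 4 with a higher and 6 with a lower mean in Het, and by edgeR 0 had an unadjusted p under 0.05. The smallest p in that list belonged to Wnt5a, a ligand of the noncanonical branch, and Wls, the carrier that brings WNT proteins to the surface, with log2 fold changes of -0.47 (SE 0.27) and -0.31 (SE 0.19). Markers of central vein endothelium summed to 39.6 to 49.2 CPM in WT and 39.1 to 47.8 CPM in Het, with a higher mean for 3 of 9 genes. Thbd, thrombomodulin, was separate and lower in Het (log2 fold change -0.30, edgeR unadjusted p 0.0837), and Cdh13, T-cadherin, had -0.27 (SE 0.18). Of the 9 markers 1, Thbd, was separate and lower, against 6.72% of all genes.

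Summed over 16 genes, receptors and receptor ligases had 369 to 381 CPM in WT and 313 to 362 CPM in Het. Of the 12 that were tested 8 had a lower mean, and 2 were separate and lower (6.72% of all genes). By edgeR 0 passed after adjustment, and 1 was lower at an unadjusted p under 0.05 (3.77% of all genes). The gene with that p was Lrp6, the WNT co-receptor, at 73.7, 76.5 and 70.5 CPM for WT, against 48.7, 67.3 and 54.2 CPM for Het. All its Het libraries lay below all WT libraries, a log2 fold change of -0.37 (SE 0.13; edgeR adjusted p 0.685). It was -0.59 for Lrp6 without Het 2 and Het 3 together, an omission added for this gene after its values were seen. That omission left Het 1, the lowest library of Lrp6, as the only Het library, so a larger drop could be foreseen. Lrp5, the relative of Lrp6, had -0.08 (SE 0.18), and Lgr4, the broadly expressed R-spondin receptor, -0.23 (SE 0.16). Fzd4 had 47.4 ± 5.04 CPM in WT against 42.4 ± 17.1 CPM in Het. Fzd6, a frizzled receptor, was separate between the genotypes too at 4.58 ± 0.449 against 3.27 ± 0.802 CPM, and its unadjusted p in edgeR was 0.0528. Het 1 was the lowest library for 7 of the 12 genes, where 24.3% of all tested genes had their lowest value in that library.

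**Figure D2:**
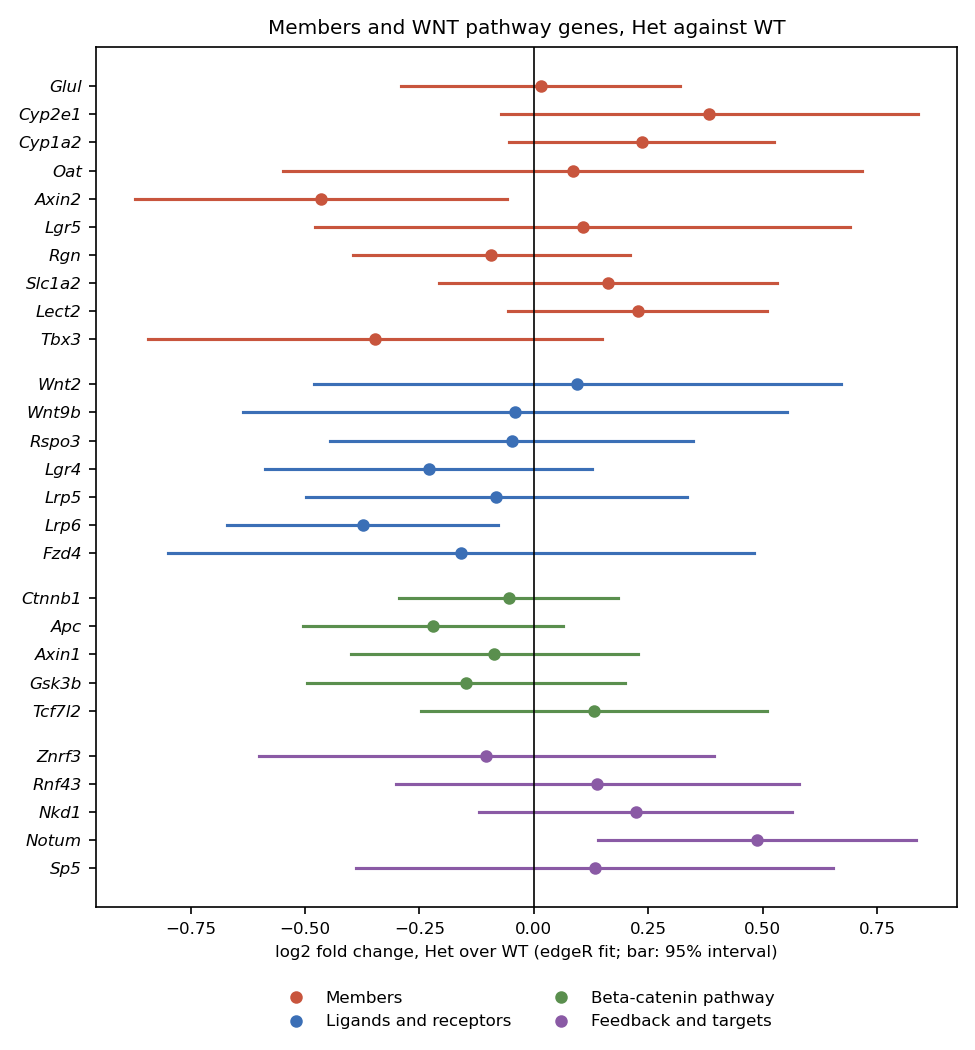
Log2 fold change, Het over WT, from the edgeR fit for the members and for genes of the WNT pathway, with bars for the 95% interval. Intervals clear of 0 belong to Axin2 and Lrp6 on the lower side and Notum on the higher side, and none of the 3 passed after adjustment.

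Beta-catenin itself, Ctnnb1, stood at 193, 227 and 199 CPM for WT and at 187, 204 and 204 CPM for Het, a log2 fold change of -0.05 (95% interval -0.29 to 0.18). Among the 18 tested genes of beta-catenin and its destruction complex 14 had a lower mean in Het (median log2 fold change -0.07), their sum was 832 to 860.1 CPM against 767 to 814 CPM, and by edgeR 0 had an unadjusted p under 0.05. Apc, the scaffold of the complex, was separate between the genotypes at 38.2 ± 1.98 against 32.7 ± 4.72 CPM (SD, n = 3; log2 fold change -0.22), and Tnks2, a tankyrase that removes axin, at 48.5 ± 3.41 against 41.9 ± 4.80 CPM. They were the only 2 of the 18 genes that were separate, both lower, where 6.72% of all genes were separate and lower. Het 1 was the lowest library for 9 of the 18, against 24.3% of all tested genes. Axin1 and Gsk3b, further parts of the complex, had -0.09 and -0.15, and Csnk1a1, the kinase that primes beta-catenin, -0.23 (SE 0.11). Of 15 nuclear partners 8 were higher, among them Tcf7l2, the main TCF factor of the liver, at 0.13 (SE 0.16). Tle1, a Groucho corepressor, was higher in all Het libraries at 57.7 ± 0.443 against 46.8 ± 8.73 CPM (edgeR adjusted p 0.698). Its relative Tle3 had a lower mean in Het and the smallest p of the list, at 13.1, 12.8 and 8.62 CPM for WT against 8.39, 8.34 and 9.43 CPM for Het, with overlapping libraries (log2 fold change -0.40, edgeR unadjusted p 0.0516). Crebbp, a coactivator named after its values were seen, was separate and lower, at 22.2 ± 1.11 against 20.2 ± 0.611 CPM. So of the 15 genes 1 was separate and higher (7.15% of all genes) and 1 separate and lower (6.72% of all genes).

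General targets of the pathway had differences of both signs. Notum, a secreted enzyme that strips the lipid from WNT proteins and is itself a WNT target, had 29.0, 37.3 and 38.7 CPM for WT, against 51.5, 41.0 and 54.8 CPM for Het. The genotypes were separate, Het being higher, with a log2 fold change of 0.49 (SE 0.15, 95% interval 0.14 to 0.83), with an edgeR unadjusted p of 0.0117 and an adjusted p of 0.677. Without Het 2 and Het 3 together, an omission likewise added for Notum after its values were seen, it was 0.56. That value rests on Het 1 alone for Het. Nkd2, an inhibitor gene like Nkd1, was separate in the same direction as the lower mean of Axin2, at 0.458 ± 0.0443 against 0.288 ± 0.0643 CPM (log2 fold change -0.63, edgeR unadjusted p 0.0789). Nkd2 was scarce, with 9 to 27 counts per library. Nkd1, an intracellular inhibitor, had 0.22 (SE 0.15), and the receptor ligases Znrf3 and Rnf43 had -0.10 and 0.14. Sp5, a transcription factor target, had 0.13 (SE 0.23). Among 5 tested secreted inhibitors 3 had a higher mean, Notum included, and Sfrp5, a decoy receptor, was scarce at 0.117 to 0.443 CPM. Of 10 tested target genes 6 were higher and 4 lower, with 1 at an unadjusted p under 0.05 and higher (3.39% of all genes), and by edgeR 0 after adjustment. Of these 10 genes 1, Notum, was separate and higher (7.15% of all genes) and 1, Nkd2, separate and lower (6.72%).

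Het 3 was the highest library for 5 of the 10 members, Cyp2e1, Cyp1a2, Lgr5, Rgn and Slc1a2, where 16.7% of all tested genes peaked in it. WT 1 was the lowest library for 5 members, Cyp2e1, Cyp1a2, Lgr5, Lect2 and Tbx3, against 16.6% of all tested genes. For 24 other pericentral genes, which were not members, WT 1 was the lowest library in 6 and the highest in 8. Het 3 was the highest in 5 of those 24 and the lowest in 3. The members' level in a library, taken as the median over genes of the log2 CPM relative to each gene's own mean, was -0.17, -0.10 and 0.02 in WT and -0.13, -0.04 and 0.16 in Het. Summed CPM of the 10 genes ran from 9660.4 to 12510.0 in WT and from 12505 to 14285 in Het, most of it Cyp2e1.

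Periportal genes were set against them in the same libraries. For these 24 genes WT 1 was the highest library in 12 (18.0% of all tested genes) and Het 3 the lowest in 13 (15.9%). Hal, which starts histidine breakdown, stood at 572, 417 and 309 CPM for WT and at 475, 405 and 205 CPM for Het. Cps1, the entry enzyme of the urea cycle, stood at 5739.5, 4652 and 4145 CPM for WT, against 3776, 5577 and 2812 CPM for Het. Both had their highest value in WT 1 and their lowest in Het 3. Cyp2f2, the cytochrome of the portal side, differed from this with its highest value in Het 1 at 854 CPM. The periportal level was 0.37, -0.08 and -0.09 in WT and 0.07, 0.13 and -0.20 in Het, so the span between libraries of one genotype exceeded the gap between the genotypes. The counts of extreme libraries were taken up after the values had been seen. The part of the clock difference in Het 2 and Het 3 was not tested.

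**Figure D3:**
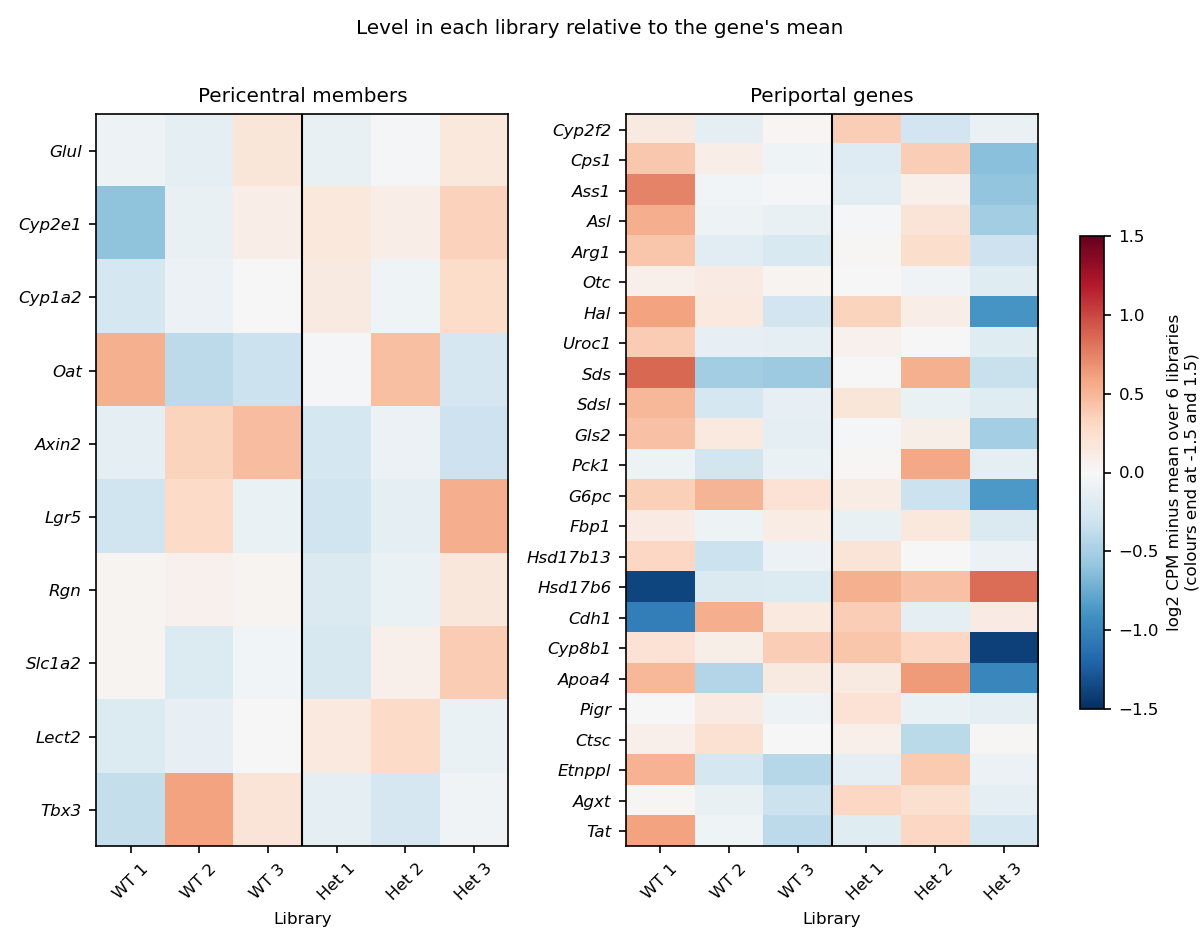
Log2 CPM relative to each gene's mean over the libraries (colour), for the members (left) and the periportal genes (right), 1 column per library. WT 1 is the lowest column for 5 of 10 members and the highest for 12 of 24 periportal genes.

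Oat had an order of libraries of its own among the members. Its 2 highest libraries, WT 1 and Het 2, were also the 2 highest for 9 of the 24 periportal genes (37.5%), for 1 of 24 other pericentral genes and for 8.43% of all tested genes. No other member had that pair on top. This too was taken up after the values had been seen, and it has no test.

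Other pericentral genes that were not members did not share a direction. Of 24 tested genes 11 had a higher and 13 a lower mean in Het (median log2 fold change -0.01), 3 higher (3.39% of all genes) and 2 lower (3.77%) at an unadjusted p under 0.05, and by edgeR 0 after adjustment. Csad, an enzyme of taurine synthesis, averaged 139 ± 53.1 CPM in WT against 228 ± 60.8 CPM in Het (SD, n = 3). Cyp7a1, the rate-limiting enzyme of bile acid synthesis, averaged 199.9 ± 48.9 against 134 ± 35.3 CPM. Their level by library stayed between -0.08 and 0.03, a narrower span than that of the members. Among periportal genes 16 of 24 had a lower mean in Het, with a median of -0.10. The 2 with the smallest p were Hsd17b6, a steroid dehydrogenase gene, with a log2 fold change of 1.12 (SE 0.29; adjusted p 0.636 by edgeR, 0.0134 by DESeq2), and G6pc, glucose-6-phosphatase, 1.59-fold lower (edgeR adjusted p 0.685). Hamp2, a hepcidin gene of the middle of the lobule, stood at 298, 60.1 and 108 CPM for WT, against 53.9, 49.9 and 41.5 CPM for Het, while its relative Hamp averaged 1029 ± 169 and 1139 ± 232 CPM. Igfbp2, an IGF-binding protein of the same zone, averaged 186 ± 104 against 289.9 ± 144 CPM.

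**Figure D4:**
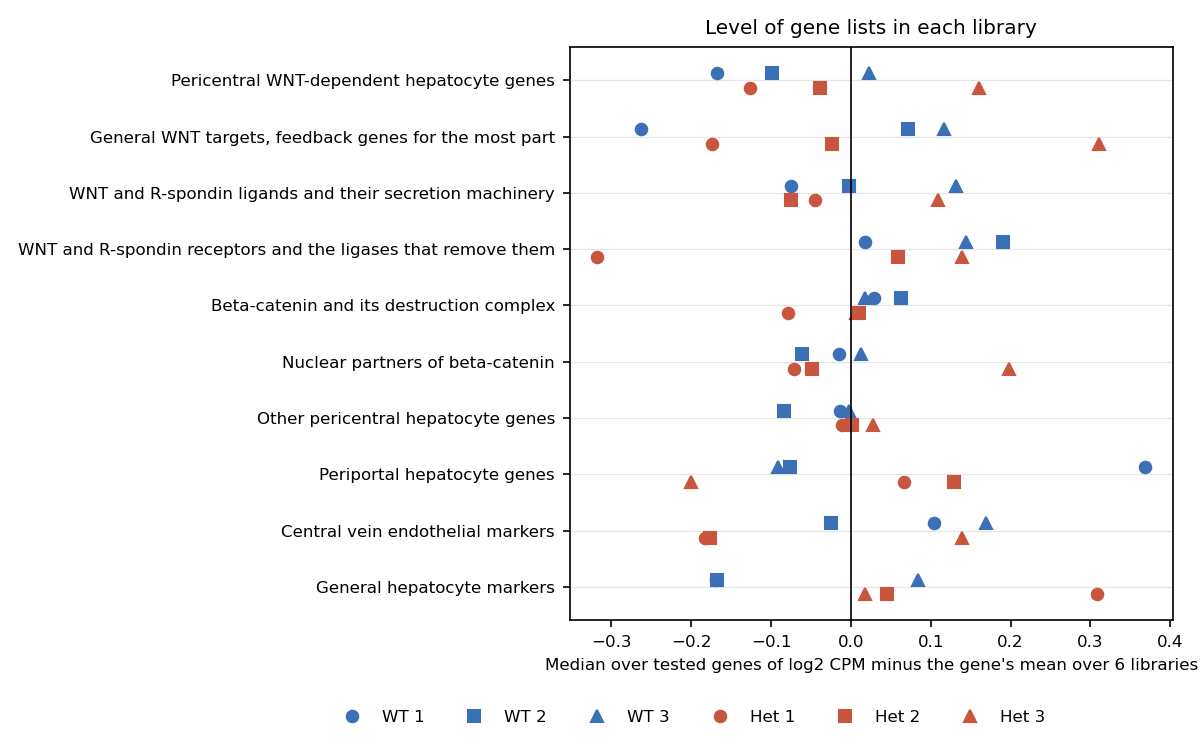
Level of each gene list in each library, as the median over its tested genes of the log2 CPM relative to each gene's own mean. For the members and the general targets WT 1 is lowest and Het 3 highest, and for the periportal genes WT 1 is highest and Het 3 lowest.

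Markers of hepatocytes as a whole had a higher mean in Het for 7 of 9 genes (median log2 fold change 0.23) and summed to 134308 to 160729 CPM in WT and 158722 to 194609 CPM in Het. Of these 9 genes 3 were separate between the genotypes and higher in Het, against 7.15% of all genes. Ttr and Ahsg, both genes of secreted plasma proteins, were among the 3 (log2 fold changes 0.34 and 0.39, edgeR adjusted p 0.694 and 0.712). The part of this in the higher means of Cyp2e1, Cyp1a2 and Lect2 was not tested.

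Markers of other liver cells are given beside the members, and their part in the members' values was not tested. By edgeR 0 of them passed after adjustment. Kupffer cell markers had a lower mean in Het for 6 of 8 genes (median log2 fold change -0.19), and their sums, 404 to 654 CPM in WT and 302 to 546 CPM in Het, overlapped. Marco, a scavenger receptor of these macrophages, was separate and 2.86-fold lower, at 72.4 ± 19.9 against 25.4 ± 13.3 CPM (edgeR unadjusted p 0.00517, adjusted p 0.648), and Timd4 had -0.62 (SE 0.32). Of the 8 Kupffer cell markers 1, Marco, was separate and lower, against 6.72% of all genes. Leukocyte markers had a lower mean for 7 of 8 genes (median -0.32), among them Ptprc, the common leukocyte antigen, at -0.63 (edgeR unadjusted p 0.0439) and Lyz2 at -0.39, and they summed to 92.8 to 138 CPM in WT and 60.6 to 105 CPM in Het. General endothelial markers summed to 468 to 552 and 450.0 to 596 CPM, with Pecam1 at -0.14 and Clec4g at 0.09. Stellate cell markers summed to 469.9 to 553 and 509 to 520.3 CPM. Of these 10 genes 2 were separate and higher (7.15% of all genes) and 2 separate and lower (6.72%). Among them were Col3a1, a collagen gene, lower at -0.21, and Rgs5, a pericyte gene, higher at 0.21. Cholangiocyte markers summed to 49.7 to 64.0 and 46.7 to 57.1 CPM, with Spp1 at -0.20 and Tspan8 at -0.44.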

How the data were processed

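Polyadenylated liver RNA was sequenced from strand-marked libraries. The build mm10 and the tools DESeq2 1.16.1, HTSeq 0.6.1p1, STAR 2.5.3a, cutadapt 1.10 and bcl2fastq 2.17.1.14 are named, per the submitters' processing notes. Annotation release, strand setting and handling of multi-mapped reads were not given in the sources used here. Raw counts per gene are what the authors deposited and what was used, 1 column per library. The normalized columns, whose decimal marks are lost, and the authors' differential expression table were not used.

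Genes were filtered with filterByExpr (14606 of 25904 kept, with 99.955% of counts), scaled by TMM and tested with edgeR 4.0.16 in R 4.3.3 (quasi-likelihood, two-sided, genotype as the only term, Benjamini-Hochberg over all tested genes, threshold 0.05). Standard errors and 95% intervals come from the F statistic. List levels used log2 CPM with a prior count of 2. DESeq2 1.42.0, limma-voom (limma 3.58.1), other scalings and filters, a replicate block and omitted libraries were alternatives. The script was tested on simulated data.

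The members and gene lists were chosen with earlier results of these data known. Genes named are Ptprd, the members, a listed set of WNT and zonation genes and the 2 genes of smallest p in each list. Tbx3os1 and Crebbp were chosen after their values were seen. No 2 libraries agreed within sampling noise (smallest chi-square per degree of freedom 39.97).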

Additional observations from a re-analysis of the deposited data

How the results depend on the processing

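By edgeR 0 genes and 0 members were called with RLE or upper-quartile scaling, with 1 CPM required in 3 or more libraries, with the replicate block and without Het 2 and Het 3 together, and limma-voom called 0 of either. DESeq2 called 64 genes, and edgeR with no filter on low counts called 73, with 0 members in both. With 1 library omitted, 0 to 1 genes were called, the 1 without Het 2, and 0 members. With the replicate block 1103 genes and 1 member had an unadjusted p under 0.05, against 1045 and 1 in the fit without it, and it changed no call of a member. Same-numbered WT and Het libraries had correlations of -0.07, 0.12 and 0.15 in their deviations from the group means, and WT 1 correlated best with Het 2, so the numbers were not taken as pairs.

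Members whose libraries did not overlap numbered 0 with RLE or upper-quartile scaling and 1, Cyp2e1, with no filter on low counts (10.3% of all genes). With 1 library omitted they numbered 0 to 3, where 21.1% to 27.8% of all genes were separate, and without Het 2 and Het 3 together 6, where 63.1% were. The sign held in all 14 alternatives for Cyp2e1, Cyp1a2, Axin2, Rgn, Lect2 and Tbx3. With 1 library omitted the log2 fold change ran from -0.062 to 0.12 for Glul, -0.13 to 0.44 for Oat, -0.20 to 0.30 for Lgr5 and -0.0086 to 0.30 for Slc1a2. Without Het 2 and Het 3 together it was -0.11 for Glul, -0.021 for Oat, -0.28 for Lgr5 and -0.17 for Slc1a2, and the lone Het library is then assumed to vary like the others. The cause of these reversals was not tested. Axin2 and Lgr5, with 191 to 703 counts per library, have the lowest depth of the members.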
